A study of Mus with 8 samples.

Results

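Interferon-stimulated genes are the genes that a cell switches on when interferons bind its surface. The 46 genes described here were taken by gene symbol from a given list, and all 46 were found among the 31269 symbols of the deposited count table. By role they fall into 37 targets of type I interferon, 8 GTPases that respond mainly to interferon gamma, and Irf1, a factor that interferon gamma induces and that is kept apart from both classes. They were measured by RNA sequencing of mouse uterus at pseudopregnancy day 6, in 4 control libraries and 4 libraries whose label says that the myometrium, the muscle layer of the uterus, lacks PGR, the progesterone receptor. Both groups are at the same stage, a hormonal state like early pregnancy that follows mating without fertilisation. The allele, the promoter or Cre line behind the deficiency, the strain, the age and the number of animals behind each library are not stated in the labels, and the tissue label speaks of implantation sites although pseudopregnancy has no embryos.

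Type I interferons (the alpha and beta forms, and in the uterus the epithelial epsilon form) signal through IFNAR1 and IFNAR2 and the kinases JAK1 and TYK2. STAT2 and IRF9 then act in a complex that binds the interferon-stimulated response element in the promoters of antiviral genes. Interferon gamma, made by natural killer and T cells, signals through IFNGR1 and IFNGR2 and drives the guanylate-binding proteins (GBP) and immunity-related GTPases (IRG), which attack vacuoles that hold microbes. In the mouse uterus natural killer cells and their interferon gamma are known for remodelling the vessels of the implantation site. The classes overlap in practice, since many of these genes respond to both kinds of interferon.

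Total counts per library ran from 70296369 to 72364750, and the smallest count of any member in any library was 357, so all 46 members passed the filter on low counts and counting error is small beside the spread between libraries. Pgr counts did not separate the groups: its level was 131, 180.0, 144 and 171 CPM (counts scaled to a common library size, with TMM factors for differences in composition) in controls 1 to 4 and 187, 184, 177 and 159.7 CPM in libraries 1 to 4 labelled deficient. Log2 differences are given throughout as labelled deficient relative to control, and for Pgr it was 0.18 ± 0.11 (SE), with an adjusted p of 0.338 in edgeR. These counts span all cells of the tissue and the whole gene, so the group is called labelled deficient, and each direction given here rests on that label. Nothing in the labels states that the 8 libraries came from separate animals, so the p-values reflect variation among 8 libraries, which may be technical. CPM is not scaled by gene length, so levels are compared between libraries and not between genes.

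Most interferon-stimulated genes stood higher in the libraries labelled deficient, and no member passed edgeR's test. The log2 difference was positive for 45 of 46 members, against 52.0% of the 17629 genes tested, with a median of 0.67 against 0.01 over all genes tested. In edgeR's quasi-likelihood test with Benjamini-Hochberg adjustment over all genes, 0 of 46 passed at 0.05 (0% of all genes tested passed), with adjusted p from 0.101 to 0.937. At an unadjusted p under 0.05, 30 members (65.2%) were higher and 0 lower, where 13.0% of all genes tested were higher. DESeq2 called 25 members (54.3%) higher at its adjusted p of 0.05, where it called 7.41% of all genes tested higher, and limma-voom called 0 members. In 9 members (19.6%) all 4 libraries labelled deficient lay above all 4 controls, against 7.61% of all genes tested. The members are measured in the same 8 libraries and vary together, so these counts are not independent of each other. In whole tissue, a change in the number of cells of a type and a change in RNA per cell cannot be told apart.

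Much of the difference came with 2 libraries, libraries 2 and 3 labelled deficient, where the type I mean stood highest. Leaving out this pair lowers the differences by that choice, and no other pair was left out. The fit then sets 4 controls against 2 libraries, so fewer calls also reflect fewer libraries. Without libraries 2 and 3 labelled deficient, 8 members (17.4%) had an unadjusted p under 0.05 and were higher, against 8.97% of all genes tested. The 8 were Stat2, Ddx58, Zbp1, Eif2ak2, Bst2, Trim30a, Irgm1 and Ifi47, and 1 member, Ifit3, was lower. DESeq2 then called 0 members, where 3.45% of all genes tested were called higher. The median log2 difference without both was 0.30 for type I targets and 0.26 for gamma-type GTPases. The count wholly above the controls was 9 members (19.6%), against 14.8% of all genes tested. Scaling aside, leaving out libraries cannot lower that count, so its staying at 9 carries no information. A count of members wholly above the controls also turned on the highest control and the lowest library labelled deficient. It was 28 (60.9%) without control library 3, against 9.75% of all genes tested, and 29 (63.0%) without library 4 labelled deficient, against 13.5%. The DESeq2 count was 15 (3.73% of all genes tested), 9 (6.12%), 30 (5.04%) and 4 (2.45%) without control libraries 1 to 4 in turn, where the share in brackets is that of all genes called higher in the same fit. Without libraries 1 to 4 labelled deficient in turn it was 26 (7.88%), 10 (4.00%), 9 (4.49%) and 33 (11.8%).

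**Figure D1:**
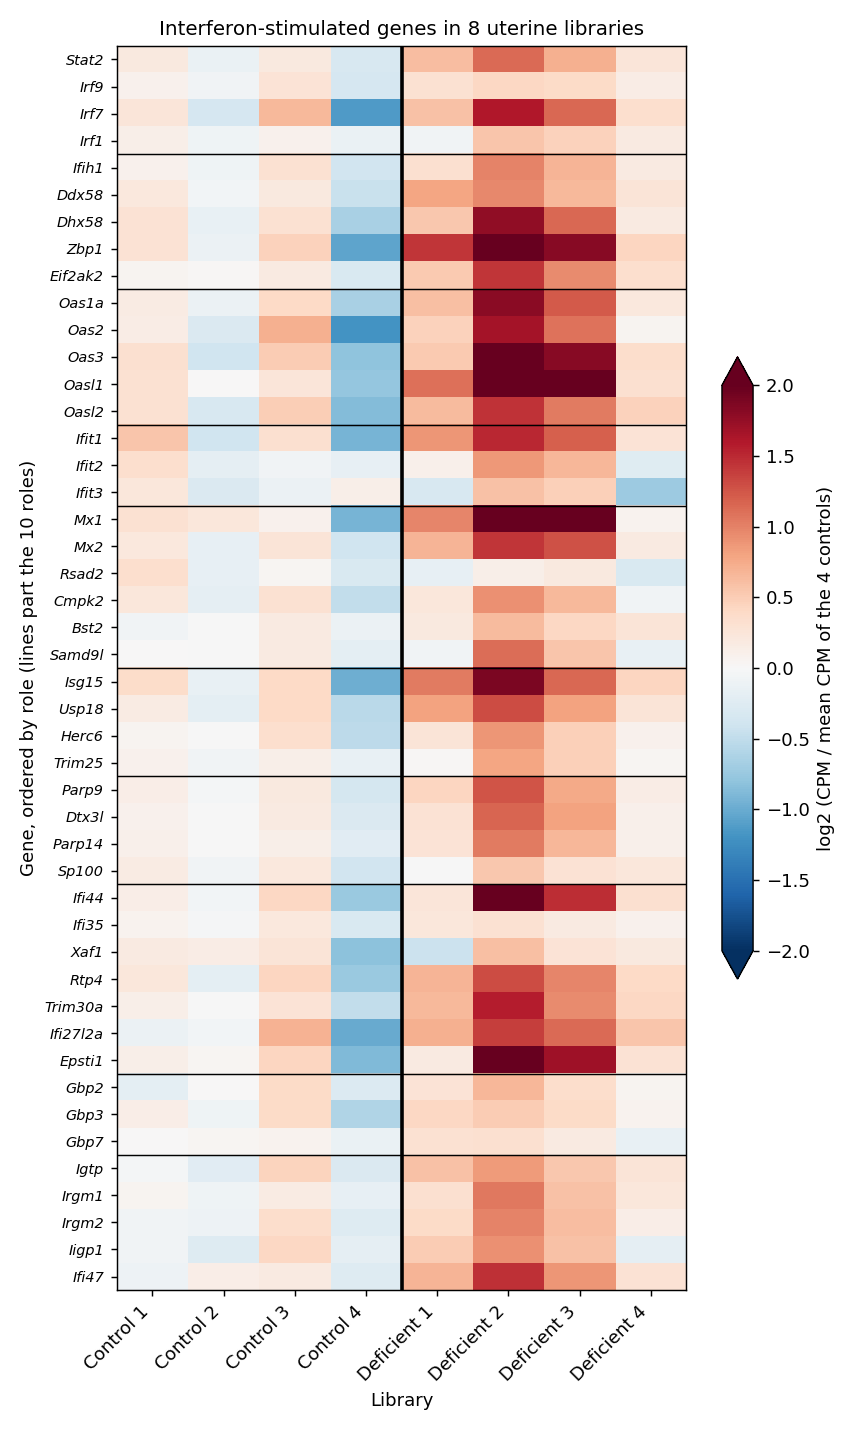
Levels of the 46 members (rows, by role) in the 8 libraries (columns), as log2 of CPM over the mean CPM of the 4 controls. Colours stop at -2 and 2. "Deficient" stands for labelled deficient. Library 2 labelled deficient is the highest of all 8 in 45 of 46 rows, and control library 4 is the lowest in 41.

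The members varied together from library to library within each group as well. Library 2 labelled deficient held the highest level of all 8 libraries for 45 members, where 28.6% of all genes tested had their highest level there. The exception was Rsad2, which was highest in control library 1. Control library 4 held the lowest level of all 8 for 41 members, where 15.2% of all genes tested had their lowest level there. Among the controls alone, library 3 was the highest for 38 members and library 1 for the other 8, where each was highest for 25.3% of all genes tested. Control library 4 was the lowest of its group for 43 members, against 26.3% of all genes tested. Among the libraries labelled deficient, library 4 was the lowest for 39 members and library 1 for the other 7, against 27.2% and 23.5% of all genes tested. The highest control exceeded the lowest by a median of 1.60-fold over the members and 1.27-fold over all genes tested, and the same ratio within the group labelled deficient was 2.07-fold for the members and 1.44-fold over all genes tested.

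Each library labelled deficient was also set against the highest control. Library 2 lay above it for 45 members (97.8%), where 37.7% of all genes tested did so. Library 3 did so for 42 members (91.3%), against 31.6% of all genes tested, and library 1 for 31 members (67.4%), against 29.9%. In library 4 the count was 11 members (23.9%), against 24.6% of all genes tested, a share near the background. For most members library 4 labelled deficient was thus at or below the highest control.

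The factors that carry the signal to the nucleus differed in how far they separated. Stat2, a subunit of the complex that type I interferon activates, measured 141, 113, 142 and 99.0 CPM in controls 1 to 4 and 190.0, 272, 203 and 146 CPM in libraries 1 to 4 labelled deficient. Every library labelled deficient was above every control, with library 2 highest, and the log2 difference was 0.71 ± 0.20 (SE, adjusted p = 0.104). Irf9, the DNA-binding subunit of the same complex, measured 121, 109, 138 and 90.7 CPM against 141, 152, 149 and 127 CPM, with library 4 labelled deficient inside the control range and a log2 difference of 0.31 ± 0.13. Irf7, which amplifies the production of interferon alpha, measured 128, 84.7, 169 and 48.8 CPM in the controls and 161, 325, 238 and 135 CPM in the libraries labelled deficient. Its controls spread over 3.46-fold, and libraries 1 and 4 labelled deficient lay below control library 3 (log2 difference 1.00 ± 0.41). Irf1, the gamma-induced factor, measured 109, 94.5, 106 and 91.5 CPM against 95.2, 148, 139 and 114 CPM, so that library 1 labelled deficient stood with the 2 lowest controls (log2 difference 0.30 ± 0.14). Adjusted p for Irf9, Irf7 and Irf1 ran from 0.178 to 0.219.

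All 5 sensors of foreign or misplaced nucleic acid had an unadjusted p under 0.05 and were higher, where 13.0% of all genes tested were. DESeq2 called 4 of them, where it called 7.41% of all genes tested higher. Ddx58 encodes RIG-I, a helicase that detects uncapped viral RNA. It measured 108, 90.7, 107 and 68.7 CPM in controls 1 to 4 and 161, 182, 147 and 112 CPM in libraries 1 to 4 labelled deficient, with no overlap and a log2 difference of 0.68 ± 0.18 (SE, adjusted p = 0.102). Eif2ak2, the kinase PKR that stops translation when it meets double-stranded RNA, measured 51.9, 50.7, 56.1 and 40.1 CPM against 71.3, 134, 96.2 and 62.5 CPM, again with no overlap (0.87 ± 0.24, adjusted p = 0.102). Zbp1, which binds Z-form nucleic acid and can start necroptosis, had the largest difference of the 5. Its values were 26.0, 19.5, 29.4 and 10.3 CPM in the controls and 57.5, 131, 75.0 and 28.8 CPM in the libraries labelled deficient, where library 4 lay between control libraries 1 and 3, and the log2 difference was 1.78 ± 0.48 (adjusted p = 0.102). Ifih1, which encodes the long-RNA sensor MDA5, had the largest p of the 5 and measured 54.8, 48.6, 63.3 and 39.4 CPM against 64.7, 103, 82.3 and 58.6 CPM, with only library 4 labelled deficient inside the control range (0.58 ± 0.20, adjusted p = 0.143). Dhx58, which encodes LGP2, a regulator of both helicases, was at a log2 difference of 1.04 ± 0.36.

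By role, the OAS family had the widest range between libraries, with a median of 2.47-fold between the highest and the lowest control and 3.05-fold within the group labelled deficient. OAS enzymes make short oligoadenylates that switch on RNase L, and the OAS-like genes encode relatives with antiviral or regulatory roles. Oasl1, known to restrain Irf7 translation, measured 11.3, 9.17, 10.8 and 5.34 CPM in controls 1 to 4 and 19.7, 96.6, 41.4 and 11.4 CPM in libraries 1 to 4 labelled deficient. Library 2 was 10.5 times the control mean and library 4 was level with control library 1, at the edge of no overlap, and the log2 difference was 2.20 ± 0.63 (SE, adjusted p = 0.108). The Oasl1 difference was 0.77 without libraries 2 and 3. Oas3 measured 23.0, 14.0, 26.1 and 10.6 CPM against 26.4, 154, 64.8 and 23.6 CPM, with library 2 at 8.38 times the control mean and library 4 inside the control range (1.87 ± 0.63, adjusted p = 0.134, and 0.44 on the log2 scale without libraries 2 and 3). Oas1a measured 27.2, 22.3, 32.2 and 15.6 CPM against 36.9, 85.3, 56.8 and 28.2 CPM, and only library 4 labelled deficient was inside the control range (1.09 ± 0.36, adjusted p = 0.131). Oas2 had the largest p of the family, with 170.0, 126, 249 and 67.1 CPM in the controls and 211, 484, 325 and 159 CPM in the libraries labelled deficient. Its controls alone spread over 3.71-fold, and libraries 1 and 4 labelled deficient lay below control library 3 (0.95 ± 0.45, adjusted p = 0.231). Oasl2 was at a log2 difference of 0.94 ± 0.33. Oas1a, Oas2 and Oas3 lie on chromosome 5 between 120730333 and 120907544, and Oasl1 and Oasl2 on the same chromosome between 114896926 and 114937911 (GRCm38.p6). Oas1a has near copies, among them Oas1g. How the authors' counting treated reads that match several copies is not stated, so its count may be affected.

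The IFIT genes, whose products bind viral RNA, did not behave alike. Ifit1 measured 58.5, 30.2, 49.9 and 21.1 CPM in controls 1 to 4 and 73.5, 113, 91.8 and 48.0 CPM in libraries 1 to 4 labelled deficient, with library 4 inside the control range and a log2 difference of 1.03 ± 0.36 (SE, adjusted p = 0.143). Ifit2 measured 45.1, 31.5, 33.9 and 31.7 CPM against 38.0, 64.9, 56.3 and 30.0 CPM, where library 4 labelled deficient was the lowest of all 8 (0.41 ± 0.24, adjusted p = 0.32). Ifit3 measured 69.2, 48.5, 54.5 and 64.3 CPM against 47.1, 88.6, 82.4 and 35.6 CPM. Libraries 2 and 3 labelled deficient were the highest of all 8 and libraries 4 and 1 the lowest, so that the groups did not differ beyond their spread (0.10 ± 0.29, adjusted p = 0.845). Without libraries 2 and 3 the Ifit3 difference was -0.51 and that of Ifit2 was -0.058 (adjusted p = 0.209 and 0.889), the opposite sign. The 3 genes lie close together on chromosome 19 between 34550550 and 34650009. Ifit3 has a close copy, Ifit3b, whose symbol is not among those of the deposited counts. How reads that match both were counted is not stated, so the Ifit3 count may be affected.

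**Figure D2:**
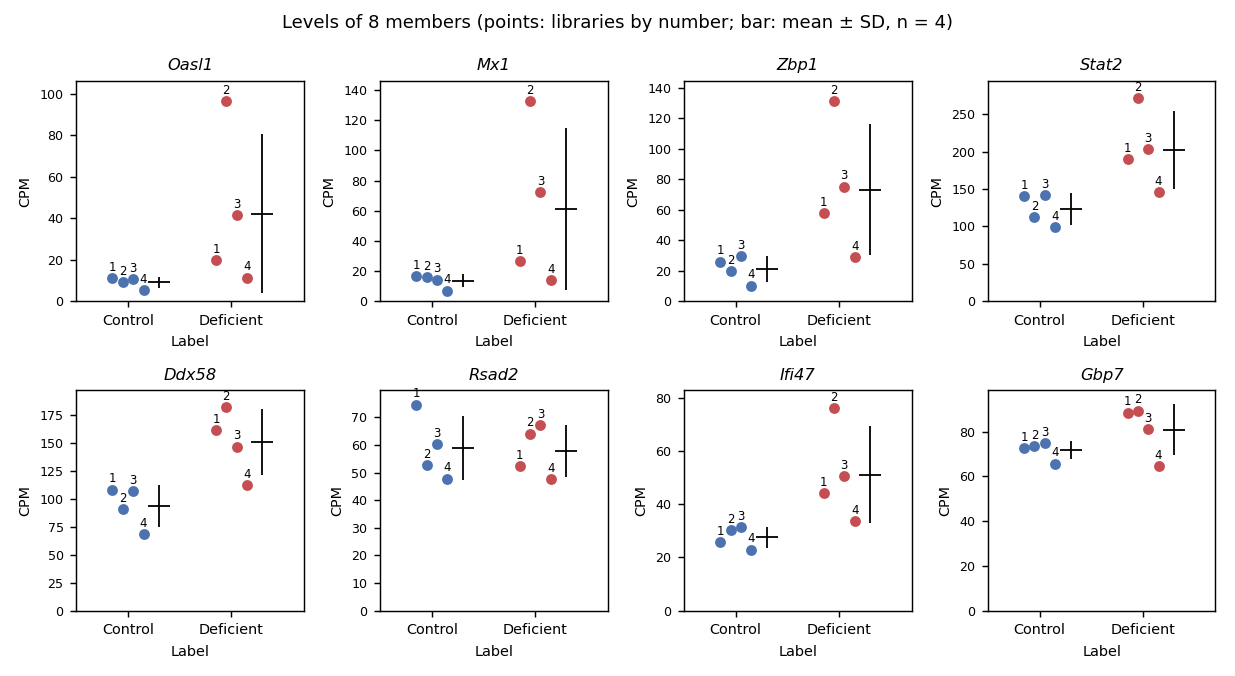
CPM of 8 members in each library (points, numbered by library) with the mean and SD of each group (n = 4). "Deficient" stands for labelled deficient. Oasl1, Mx1 and Zbp1 are far above the controls in libraries 2 and 3, whereas the groups overlap for Rsad2, and Stat2, Ddx58 and Ifi47 do not overlap.

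Among the antiviral effectors, the Mx genes had the largest differences and viperin lay near 0. Mx1 and Mx2 encode dynamin-like GTPases that trap viral nucleoprotein. Mx1 measured 16.7, 15.7, 14.3 and 7.09 CPM in controls 1 to 4 and 26.5, 133, 72.2 and 14.1 CPM in libraries 1 to 4 labelled deficient. Library 2 reached 9.85 times and library 3 5.36 times the control mean, while library 4, at 1.04 times, was inside the control range. The log2 difference of Mx1 was 2.19 ± 0.66 (SE, adjusted p = 0.116), and 0.60 without libraries 2 and 3. Mx2, its neighbour on chromosome 16, measured 14.5, 11.1, 15.0 and 9.45 CPM against 20.0, 33.7, 30.2 and 14.1 CPM (0.97 ± 0.28, adjusted p = 0.11), again with only library 4 labelled deficient inside the control range. Bst2, or tetherin, which holds budding virus on the cell surface, measured 102, 107, 121 and 99.2 CPM against 123, 166, 143 and 129 CPM. Its difference was small at 0.38 ± 0.11 but every library labelled deficient was above every control (adjusted p = 0.107). Rsad2, or viperin, an enzyme that makes a chain-ending nucleotide, was the single member with a negative difference. Its levels were 74.5, 52.8, 60.2 and 47.8 CPM in the controls and 52.3, 64.1, 67.2 and 47.7 CPM in the libraries labelled deficient (-0.02 ± 0.16, 95% interval from -0.40 to 0.35), with the highest level in control library 1. Cmpk2, a nucleotide kinase encoded beside Rsad2 on chromosome 12, was at 0.48 ± 0.25, and Samd9l, a restriction factor, at 0.45 ± 0.27, neither past an unadjusted p of 0.05.

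The ISG15 system attaches a ubiquitin-like tag to proteins and removes it. Isg15, the tag itself, measured 22.0, 15.4, 22.5 and 8.67 CPM in controls 1 to 4 and 35.1, 63.3, 38.2 and 23.1 CPM in libraries 1 to 4 labelled deficient, with no overlap and a log2 difference of 1.22 ± 0.37 (SE, adjusted p = 0.117). Usp18, which removes the tag and also blocks the type I receptor, measured 28.3, 22.2, 33.1 and 17.4 CPM against 43.9, 62.7, 43.9 and 30.2 CPM, and library 4 labelled deficient alone was inside the control range (0.84 ± 0.26, adjusted p = 0.117). The tag and its remover thus both stood higher, while the ligases had smaller log2 differences. Herc6, the main ISG15 ligase of the mouse, measured 40.7, 39.2, 49.8 and 27.4 CPM against 47.0, 72.5, 54.5 and 41.8 CPM, with libraries 1 and 4 labelled deficient inside the control range (0.46 ± 0.22, adjusted p = 0.228). Trim25, a ligase that activates RIG-I, measured 220.2, 198, 225 and 186 CPM against 209.6, 356, 289.8 and 213 CPM (0.37 ± 0.17, adjusted p = 0.229), and its libraries 1 and 4 labelled deficient were also inside the control range.

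Members that act through ADP-ribosylation and nuclear bodies had moderate differences. Parp9, which works in a complex with the ubiquitin ligase Dtx3l, measured 96.8, 85.5, 100.4 and 69.3 CPM in controls 1 to 4 and 119, 210.3, 149 and 97.5 CPM in libraries 1 to 4 labelled deficient (0.71 ± 0.23 SE, adjusted p = 0.13). Dtx3l measured 92.4, 87.0, 98.5 and 71.8 CPM against 107, 195, 152 and 94.1 CPM (0.65 ± 0.23, adjusted p = 0.141). Parp14, a transferase of single ADP-ribose units, measured 134, 124, 135 and 106 CPM against 150.2, 256, 198 and 134 CPM (0.56 ± 0.20, adjusted p = 0.143). For each of these 3 neighbours on chromosome 16, only library 4 labelled deficient was inside the control range. Parp9 and Dtx3l overlap by their gene spans, and since strand is not stated for the counting, reads from the shared stretch cannot be told apart. Sp100, a nuclear body protein, measured 169, 143, 174 and 115 CPM against 149.7, 219.6, 185 and 177 CPM, where library 1 labelled deficient was below control libraries 1 and 3 (0.28 ± 0.16, adjusted p = 0.292).

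Of the remaining 7 type I targets, 5 had an unadjusted p under 0.05 and were higher, where 13.0% of all genes tested were. Trim30a, a member of the TRIM family that tempers inflammatory signalling, measured 56.7, 51.7, 63.3 and 37.1 CPM in controls 1 to 4 and 81.6, 154, 100.1 and 69.5 CPM in libraries 1 to 4 labelled deficient, with no overlap (0.96 ± 0.26 SE, adjusted p = 0.104). Rtp4 measured 48.5, 36.1, 55.9 and 24.8 CPM against 65.9, 102, 81.5 and 54.3 CPM (0.88 ± 0.28, adjusted p = 0.122), and Ifi27l2a 26.1, 27.2, 45.9 and 14.1 CPM against 46.6, 73.5, 61.8 and 41.4 CPM (0.98 ± 0.34, adjusted p = 0.14). In both, library 4 labelled deficient was the one library of its group below the highest control. Epsti1 and Ifi44 had larger differences, of 1.40 ± 0.51 and 1.24 ± 0.44, that came from libraries 2 and 3, which stood at 4.98 and 3.24 times the control mean for Epsti1 and at 4.25 and 2.78 times for Ifi44. Xaf1, a pro-apoptotic partner of the inhibitor XIAP, measured 136, 134, 144 and 68.1 CPM in the controls and 89.1, 183, 146 and 137 CPM in the libraries labelled deficient. Control library 4 and library 1 labelled deficient were both low, and the groups overlapped (0.21 ± 0.28, adjusted p = 0.661). Ifi35 was at 0.20 ± 0.14. Trim30a and Ifi27l2a belong to families of close copies, and how reads that match several copies were counted is not stated.

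The guanylate-binding proteins, which coat and break open vacuoles that hold microbes, had smaller differences. Of the 3, 0 had an unadjusted p under 0.05, where 24.8% of all genes tested did. Gbp2 measured 51.3, 59.0, 76.4 and 48.5 CPM in controls 1 to 4 and 71.0, 93.1, 75.4 and 61.2 CPM in libraries 1 to 4 labelled deficient, where library 2 alone was above the highest control (0.35 ± 0.17 SE, adjusted p = 0.238). Gbp3 measured 91.6, 79.1, 109 and 55.5 CPM against 111, 119, 109 and 88.4 CPM (0.35 ± 0.19, adjusted p = 0.287), with libraries 1 and 2 labelled deficient above the highest control. Gbp7 measured 72.5, 73.7, 75.1 and 65.7 CPM against 88.6, 89.4, 81.1 and 64.8 CPM (0.17 ± 0.11, adjusted p = 0.334), and its library 4 labelled deficient was the lowest of all 8. The 3 genes lie in a cluster on chromosome 3 between 142530336 and 142638008, and their products are alike in sequence. How reads that match several of these genes or their neighbours were counted is not stated, so their counts may be affected.

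The immunity-related GTPases had larger log2 differences than the guanylate-binding proteins, a contrast that was not tested. Of the 5, 4 had an unadjusted p under 0.05 and were higher, where 13.0% of all genes tested were. Ifi47, an effector that loads onto vacuoles, measured 25.7, 30.1, 31.3 and 22.9 CPM in controls 1 to 4 and 44.1, 76.1, 50.5 and 33.6 CPM in libraries 1 to 4 labelled deficient. The groups did not overlap, and the log2 difference of 0.89 ± 0.24 (SE) had the smallest adjusted p of all 46 members, 0.101. Irgm1, a regulator that keeps effectors off the cell's own membranes, measured 109, 99.4, 118 and 93.9 CPM against 132, 217, 158 and 122 CPM, also with no overlap (0.58 ± 0.18, adjusted p = 0.116). Igtp, a regulator of the same kind, measured 42.7, 37.6, 59.4 and 35.8 CPM against 66.0, 79.1, 63.6 and 52.4 CPM, with library 4 labelled deficient below control library 3 (0.57 ± 0.18, adjusted p = 0.124). Iigp1, an effector, measured 75.0, 65.4, 104 and 69.2 CPM against 112, 147, 118 and 69.2 CPM, and its library 4 labelled deficient lay among the lower controls (0.51 ± 0.23, adjusted p = 0.22). Irgm2, the remaining regulator, was at 0.57 ± 0.20. The differences of the 3 regulators thus lay between those of the effectors Iigp1 and Ifi47.

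**Figure D3:**
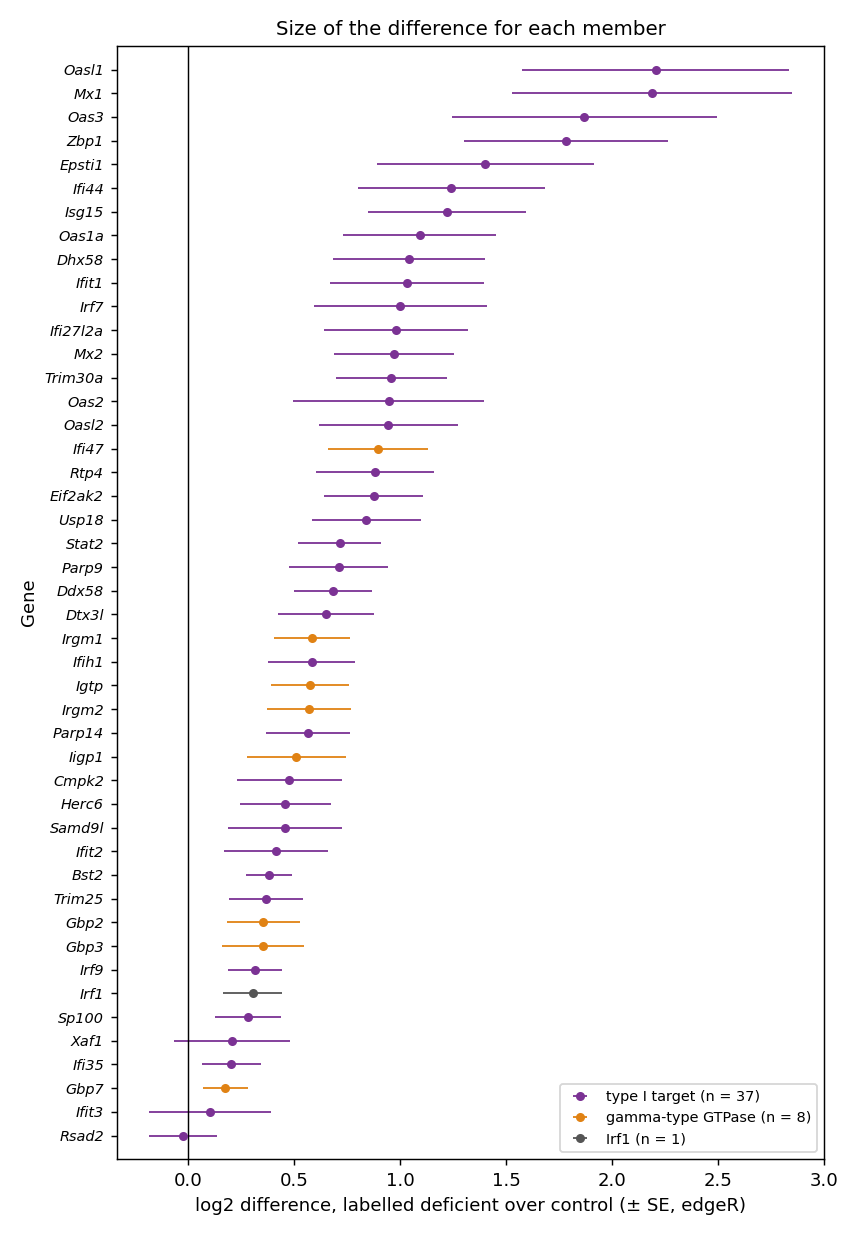
Log2 difference of labelled deficient over control for each of the 46 members, with SE from edgeR, sorted by size and coloured by class. Rsad2 alone is below 0 and Oasl1, at 2.20, is the largest. The 8 gamma-type GTPases lie between 0.17 and 0.89.

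The contrast between the classes was drawn within each library. Type I targets had a median log2 difference of 0.84 (range -0.02 to 2.20) and gamma-type GTPases one of 0.54 (0.17 to 0.89), beside 0.01 over all genes tested. At an unadjusted p under 0.05, 26 of 37 type I targets and 4 of 8 gamma-type GTPases were higher, against 13.0% of all genes tested. Of these classes, 7 and 2 members lay wholly above the controls, against 7.61% of all genes tested. For each library, the mean log2 CPM of a class was taken relative to the control mean. The type I mean was 0.23, -0.06, 0.34 and -0.51 in controls 1 to 4. In the libraries labelled deficient, 1 to 4 in turn, it was 0.49, 1.43, 0.99 and 0.22, where library 4 was below control libraries 1 and 3. The gamma-type mean was -0.01, -0.05, 0.32 and -0.25 in the controls and 0.45, 0.86, 0.54 and 0.11 in the libraries labelled deficient, where library 4 was below control library 3. Irf1 alone was at 0.13, -0.08, 0.09 and -0.13 against -0.07, 0.56, 0.47 and 0.19.

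Taking the gamma-type mean from the type I mean gave the highest values in 2 libraries. This difference was 0.57 in library 2 and 0.45 in library 3 labelled deficient, 0.03 in library 1 and 0.11 in library 4. In the controls it was 0.25, -0.0044, 0.02 and -0.26. The groups overlapped, since control library 1 was above libraries 1 and 4 labelled deficient. The group means differed by 0.29 on the log2 scale, with SDs of 0.21 in the controls and 0.26 in the group labelled deficient (n = 4 each), by 0.07 without libraries 2 and 3, and by 0.25 with medians over members in place of means. In library 1 labelled deficient both classes stood above the control mean by a like amount. No test is given for these class means, because the genes were listed with earlier results of these data known.

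**Figure D4:**
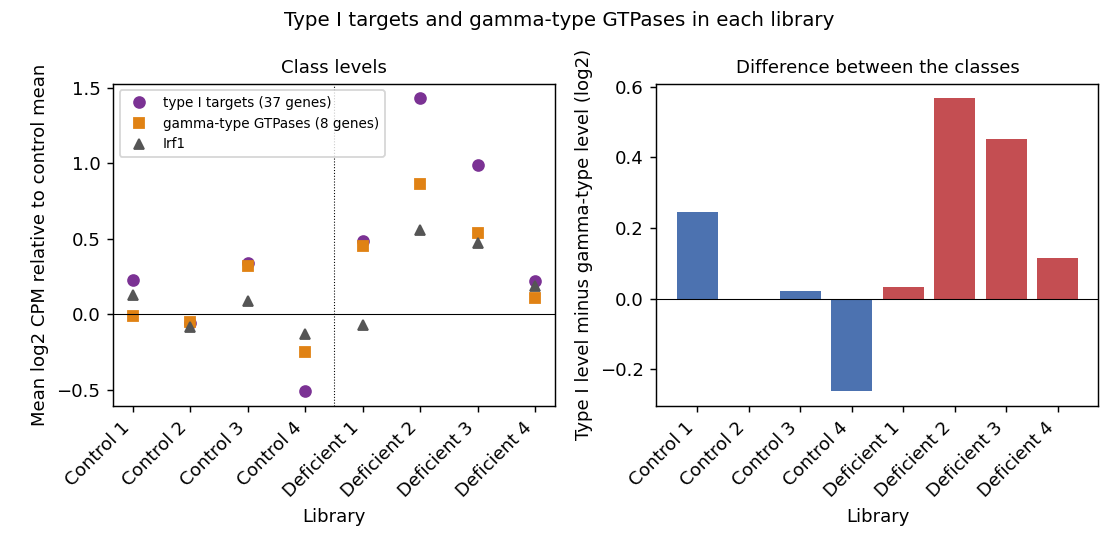
Left, the mean log2 CPM of 37 type I targets and 8 gamma-type GTPases, and the value of Irf1, in each library relative to the control mean. Right, the type I mean minus the gamma-type mean (log2). "Deficient" stands for labelled deficient. The difference is largest in libraries 2 and 3 labelled deficient, at 0.57 and 0.45, and control library 1, at 0.25, is above libraries 1 and 4 labelled deficient.

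Of the interferons themselves, interferon gamma and interferon epsilon alone passed the filter on low counts. Of 13 ligand genes listed, 11 had at most 7 counts in every library, among them Ifnb1 with 1, 4, 1 and 0 counts in controls 1 to 4 and 0 in each library labelled deficient. With no filter 10 ligand genes were tested, and besides Ifng only Ifnb1 had an unadjusted p under 0.05, lower on those few counts (edgeR adjusted p = 0.254). Ifng, the gamma ligand, measured 0.289, 0.254, 0.424 and 0.0987 CPM in controls 1 to 4 and 0.954, 1.14, 0.596 and 0.561 CPM in libraries 1 to 4 labelled deficient. Every library labelled deficient was above every control, at a low level in both groups, and the log2 difference was 1.60 ± 0.44 (SE, adjusted p = 0.104). The Ifng difference was 1.50 without libraries 2 and 3 (adjusted p = 0.213). Ifne, the epithelial ligand, measured 1.23, 11.9, 5.49 and 8.71 CPM against 2.00, 12.6, 13.2 and 3.30 CPM, a wide spread in both groups with no order between them (0.19 ± 0.77, adjusted p = 0.893). The Ifne difference had the opposite sign without libraries 2 and 3, at -1.36 (adjusted p = 0.405).

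Of the receptor chains, Ifnar1, Ifnar2 and Ifngr1 had ratios near 1. Ifnar1 measured 149.6, 146, 145 and 138 CPM in controls 1 to 4 and 149, 136, 142 and 138 CPM in libraries 1 to 4 labelled deficient, a ratio of 0.977 with a 95% interval from 0.895 to 1.07 (adjusted p = 0.73). Ifnar2 was at a ratio of 1.06 (0.975 to 1.16), and Ifngr1 at 1.09 (0.900 to 1.31). Ifngr2, the signalling chain of the gamma receptor, measured 73.1, 77.5, 80.0 and 69.4 CPM against 73.2, 136, 108 and 80.9 CPM, with libraries 2, 3 and 4 labelled deficient above all controls (0.41 ± 0.18, adjusted p = 0.211). Of the 10 listed receptor and kinase genes, 2 had an unadjusted p under 0.05, both higher, a share near the background of 13.0% of all genes tested that were higher. Jak2, a kinase of the gamma receptor, was among them, at 0.24 ± 0.10 (adjusted p = 0.192).

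Of 10 listed brakes on interferon signalling, 4 were higher and 1 lower at an unadjusted p under 0.05. Over all genes tested, 13.0% were higher and 24.8% passed in either direction. Socs1, an inhibitor of JAK kinases that interferon gamma induces, measured 8.35, 9.73, 9.43 and 9.56 CPM in controls 1 to 4 and 12.4, 16.0, 13.9 and 15.2 CPM in libraries 1 to 4 labelled deficient. The controls were close together and library 4 labelled deficient was among the higher of its group, unlike its place for most members (0.63 ± 0.11 SE, adjusted p = 0.0906). Socs3, an inhibitor best known from gp130 signalling, measured 29.5, 28.2, 28.4 and 29.1 CPM against 41.3, 46.5, 33.5 and 48.0 CPM, with library 4 the highest (0.56 ± 0.11, adjusted p = 0.0906). Ptpn6, a phosphatase of blood cells, was at 0.42 ± 0.09, with all 4 libraries labelled deficient above all 4 controls. Outside the rule for named genes, the other higher brake was Ptpn2, a phosphatase of JAK and STAT proteins, at 0.21 ± 0.09, and the lower one was Irf2bp2, a corepressor, at -0.25 ± 0.10. Without libraries 2 and 3 the differences were 0.58 for Socs1 and 0.64 for Socs3 (adjusted p = 0.145 and 0.133).

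Genes that lead to interferon production were also listed, and 7 of 13 tested had an unadjusted p under 0.05, all higher. Over all genes tested, 13.0% were higher at that threshold, the background for each list here. Tlr9, a receptor for microbial DNA, measured 7.85, 9.41, 10.6 and 6.01 CPM in controls 1 to 4 and 13.8, 18.4, 17.4 and 14.6 CPM in libraries 1 to 4 labelled deficient (0.92 ± 0.19 SE, adjusted p = 0.0906), with no overlap. Irf5, a factor of myeloid cells, was at 0.37 ± 0.11 and Tmem173, the DNA-sensing adaptor STING, at 0.92 ± 0.28, both with no overlap. Among 38 further type I targets tested, 28 were higher and 1 lower at an unadjusted p under 0.05, with a median log2 difference of 0.51. Examples with no overlap are Trim30d at 0.99 ± 0.23, Znfx1 at 0.51 ± 0.12 and Slfn1 at 1.47 ± 0.37. The lower gene, named after its value was seen, was Ifitm1, a membrane protein that blocks viral entry, at -0.44 ± 0.16. Of 26 further gamma targets 12 were higher and 0 lower (median 0.42). Besides Socs1, which is also in this list, the smallest p belonged to Psmb10, an immunoproteasome subunit, at 0.59 ± 0.17 and Nlrc5, the activator of class I presentation genes, at 0.79 ± 0.23. The chemokines Cxcl9 and Cxcl10, also named after their values were seen, were at 0.12 ± 0.62 and 0.36 ± 0.37. In edgeR 0 of the pathway genes passed at an adjusted p of 0.05, whereas DESeq2 called 32 of the 98 distinct pathway genes tested (32.7%), all higher, where it called 7.41% of all genes tested higher. Of the 98 distinct pathway genes tested, 55 had an unadjusted p under 0.05, or 56.1% against 24.8% of all genes tested. Without libraries 2 and 3 labelled deficient the count was 18, or 18.4%, the same as the 18.4% of all genes tested in that fit. It was 32 when control library 4 was left out, where 16.2% of all genes tested passed, and 34 when library 2 labelled deficient was, where 19.0% did.

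Marker lists of other cell types were summed in each library. The summed level of 9 macrophage markers was 565, 661, 711 and 543 CPM in controls 1 to 4 and 765, 1276, 1081 and 810 CPM in libraries 1 to 4 labelled deficient, so the groups did not overlap, with libraries 2 and 3 labelled deficient highest, as for most members. At an unadjusted p under 0.05, 7 of the 9 were higher, where 13.0% of all genes tested were. The sum of 12 T and natural killer cell markers was 168, 174, 135 and 104 CPM against 263, 349, 205 and 177 CPM, with 7 of 12 higher (against the same 13.0%) and library 2 labelled deficient the highest. Control library 3, the highest control for most members, was below control libraries 1 and 2 in this sum. Epithelial markers, 8 in number, summed to between 1265 and 1455 CPM in the controls and to 1289, 2860, 2122 and 1347 CPM in libraries 1 to 4 labelled deficient. Of the 8, 5 had a positive log2 difference, and only Krt8, at 0.84, had an unadjusted p under 0.05. Krt18, Cldn3 and Cldn4 were at -0.089, -0.018 and -0.11. The sum of 7 smooth muscle markers, which were counted in every library, ran from 3658 to 5490 CPM in the controls and from 3688 to 4296 CPM in the other group. Of the 7, 0 had a positive log2 difference, where 52.0% of all genes tested did, and their median was -0.23. Only Myocd, at -0.80, had an unadjusted p under 0.05, where 24.8% of all genes tested did in either direction. Lists of 5 genes gave 4.56 to 7.38 CPM against 6.86 to 16.0 CPM for B cells, 21.1 to 80.8 CPM against 8.83 to 27.0 CPM for plasmacytoid dendritic cells, a source of interferon alpha, and 789 to 956 CPM against 524 to 1067 CPM for endothelium. The B cell sum was highest in library 4 labelled deficient, at 16.0 CPM, beside 6.86, 7.70 and 9.70 CPM in libraries 1 to 3. Of the 4 B cell markers tested, 3 were higher at an unadjusted p under 0.05, where 13.0% of all genes tested were. The endothelial sum was lowest in libraries 2 and 3 labelled deficient, at 524 and 615 CPM, beside 1067 and 943 CPM in libraries 1 and 4. Most of the plasmacytoid sum in controls 2 to 4 was Klk1, a kallikrein, and without it the other 4 genes summed to 7.77 to 17.2 CPM against 5.28 to 18.4 CPM, with overlap. Neutrophil markers summed to 42.6 to 65.9 CPM against 49.1 to 82.1 CPM, with overlap. Nearly all of that sum was Retnlg and Csf3r, with log2 differences of 0.17 and 0.44. The other neutrophil markers, S100a8, S100a9 and Cxcr2, were low in every library, at -0.68, -1.60 and -0.43. Of the neutrophil list only Csf3r had an unadjusted p under 0.05. Stromal markers, which did not overlap, summed to 4992 to 6562 CPM against 6705 to 8285 CPM. Of the 5 stromal markers, the collagens Col1a1 and Col3a1 had log2 differences of 0.67 and 0.33 (unadjusted p = 0.0131 and 0.017), while Pdgfra, Dcn and Lum were at -0.046, -0.093 and 0.18, none past an unadjusted p of 0.05. No marker was at 0 in all libraries. The part of these cell types in the levels of the interferon-stimulated genes was not tested.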

How the data were processed

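RNA of 8 mouse uterus libraries was sequenced, and the authors deposited 1 table of read counts per gene symbol. HISAT2 2.2.1, HTSeq 0.10.0 and the build mm10 are named per the submitters' processing notes. The sources used here give no settings for them, strand included. Groups and numbers came from the labels. The counts were tested with edgeR 4.0.16 (R 4.3.3): filterByExpr kept 17629 of 31269 genes, TMM scaling was used, and glmQLFTest compared the groups with Benjamini-Hochberg adjustment over all genes and a threshold of 0.05. Log2 CPM for class means used a prior count of 2. Per role, the 3 members with the smallest p and the 1 with the largest are given in every library. All 46 members were matched in the RefSeq table of GRCm38.p6, and the spans of 17 overlap another gene. Alternatives were other scalings and filters, DESeq2 1.42.0, limma 3.58.1 (voom), a replicate block, and fits without libraries. DESeq2 without libraries was added after seeing the data. The scripts were tested on simulated data. The members and lists were chosen with earlier results of these data known. The values of 1 pathway gene are not reported here.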

Additional observations from a re-analysis of the deposited data

Results flagged for a closer look

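Xaf1 in control library 4, at 68.1 CPM, stood apart from the other controls, which lay between 134 and 144 CPM. The gap was 0.865 of the range of the group, past Dixon's 95% critical value for 4 samples. It was the only one found among 98 groups of 4 libraries looked at, and chance alone gives about 1 in 20.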

How the results depend on the processing

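Scaling by upper quartile, by library totals or by the size factors of DESeq2, and other filters, kept the direction of every member. Between 29 and 30 members were then higher at an unadjusted p under 0.05, against 10.4% to 13.3% of all genes tested. DESeq2 called 25 members at its adjusted p, where it called 7.41% of all genes tested higher. The count of members was 0 in edgeR, limma-voom and edgeR with legacy=FALSE. Without libraries 2 and 3 labelled deficient, 8 members were higher at an unadjusted p under 0.05 (8.97% of all genes tested), and DESeq2 called 0 (3.45%). That pair had the highest type I means, so smaller differences follow from the choice. The medians in that fit were 0.30 for type I targets and 0.26 for gamma-type GTPases. Of 98 pathway genes, 18 (18.4%) had an unadjusted p under 0.05, the share of all genes tested (18.4%). The sign then turned for Ifit2 (-0.058), Ifit3 (-0.51), Samd9l (-0.11), Xaf1 (-0.086), Ifne (-1.36) and Ifngr1 (-0.10), and the cause was not tested. Leaving out 1 library at a time gave ranges of 9 to 29 members wholly above the controls (8.02% to 13.5% of all genes tested), 4 to 33 called by DESeq2 (2.45% to 11.8%), 21 to 39 higher at an unadjusted p (7.88% to 16.4%), and 32 to 59 pathway genes (16.2% to 30.7%). The lower end of the first range was fixed in advance, since leaving out a library cannot, scaling aside, lower that count. The log2 difference then ranged from -0.12 to 0.10 for Rsad2, -0.10 to 0.30 for Ifit3 and -0.20 to 0.60 for Ifne, crossing 0 in each. The labels do not say whether the replicate numbers pair the libraries. With group means taken away, libraries of the same number correlated at 0.20, 0.24, -0.01 and -0.08. Only number 2 correlated best with its own, and so few libraries cannot settle whether a pairing exists. With the replicate number as a block, 35 members were higher at an unadjusted p, against 12.6% of all genes tested. In that fit 0 members passed the adjusted threshold, with 23 genes passing in all. A planned search of promoters for motifs was not run. Ligand genes of at most 7 counts give little precision: with no filter 10 ligands were tested, 1 higher and 1 lower at an unadjusted p under 0.05.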

Other observations

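Some neighbouring members, named after their values were seen, had log2 differences of unequal size, which were not tested against each other. Oasl1 and Oasl2, side by side on chromosome 5, had 2.20 ± 0.63 and 0.94 ± 0.33 (SE), and Mx1 and Mx2 on chromosome 16 had 2.19 ± 0.66 and 0.97 ± 0.28. Both pairs were highest in library 2 and next highest in library 3 labelled deficient, and lowest in control library 4. Ifit1 and Ifit3 on chromosome 19 had 1.03 and 0.10. Rsad2, at -0.02, and Cmpk2, at 0.48, are neighbours on chromosome 12.

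In library 4 labelled deficient, 4 of 46 members had their lowest level of all 8 libraries. They were Ifit2, Ifit3, Rsad2 and Gbp7, at 30.0, 35.6, 47.7 and 64.8 CPM. Of all genes tested 9.26% had their lowest level there, so the count of members is near the background. Socs1 and Socs3 were above every control in this library, as in the other libraries labelled deficient. In library 4, 11 members were also above the highest control, where 24.6% of all genes tested were. No explanation was tested for these values.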
